A study of Mus musculus with 6 samples.

Results

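The cytosolic ribosomal protein genes encode the proteins of the ribosome that makes protein in the cytoplasm. They were taken by symbol: Rpl or Rps followed by digits and at most one of the letters a, l, x or y, together with Rplp0, Rplp1, Rplp2 and Rpsa, which leaves out symbols that mark a pseudogene. This gave 81 of the 23282 entries in the count files, 49 of the large subunit and 32 of the small subunit. One symbol so taken, Rps4l, is annotated as a transcribed processed pseudogene in GENCODE M21 and was too low to be tested. The rule also leaves out Rps3a1, of the small subunit, and paralogues such as Rpl22l1. The samples were 3 wild type and 3 IPMK cKO libraries of regulatory T cells (Treg), CD4 T cells that hold immune responses in check. All 6 came from the spleen of C57BL/6 mice, were sorted by flow cytometry and were left unstimulated. IPMK cKO denotes a knockout of inositol polyphosphate multikinase, a kinase that phosphorylates inositol phosphates and phosphoinositides, in the short form usual for a conditional knockout. The driver of the deletion, the age and sex of the mice and any pooling were not found in the labels. The study asked how loss of IPMK alters the Treg transcriptome.

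The labels call the libraries biological replicates and do not tie them to separate mice, so each p-value measures only how these samples spread, which may be technical. Totals ran from 7464546 to 8980395 counts per library. The ribosomal RNA precursor Rn45s took 16.7% to 31.7% of counts in wild type and 19.9% to 32.1% in IPMK cKO. Ipmk counts were 129, 77 and 99 in wild type, here and throughout in the order of replicates 1 to 3, against 3, 21 and 0 in IPMK cKO. Where the 3′ tags of Ipmk lie relative to the deleted part is not known here. All 7 Treg and T cell markers were detected in every library, with summed levels of 2304 to 3150 CPM (counts brought to the same scaled library size) in wild type and 2247 to 2642 CPM in IPMK cKO. The summed level of 5 B cell markers was 19.7 to 54.0 CPM in wild type and 24.96 to 66.7 CPM in IPMK cKO. IPMK cKO replicate 1 had the highest of these B cell sums, and all 6 myeloid and all 8 erythroid markers were at 0 counts in it. Summed myeloid levels were 0.602 to 8.20 CPM in wild type with 14.2 CPM as the highest IPMK cKO value, and erythroid levels were 0.12 to 60.4 CPM with 19.3 CPM as the highest. Of 5 cytotoxic cell markers Cd8a and Ncr1 were at 0 counts throughout, and the summed level was 28.9 to 40.6 CPM in wild type and 21.0 to 53.9 CPM in IPMK cKO, where replicate 1 was the highest. The part of these cells in the results was not tested.

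Ribosomal proteins assemble with ribosomal RNA in the nucleolus into a small subunit, which decodes the mRNA, and a large subunit, which joins amino acids. Each protein is needed in about equal amounts, and the cell keeps their mRNAs abundant. Many of these mRNAs begin with a cytidine followed by a run of pyrimidines, the terminal oligopyrimidine (TOP) motif, through which mTOR signalling controls their translation. In T cells ribosome production rises on activation, and the cells here were left unstimulated.

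The starts of 8 members are printed as examples, because the TOP run is known from many of these genes. The run was not part of the symbol rule. The examples do not represent the set: all but Rpl26 carry the run, against 41.7% of member starts. Each window holds 15 bases before and 15 bases from the annotated RefSeq start (GRCm38.p6), 5′ to 3′ on the strand of the gene, with capitals for the first cytidine at most 5 bases from the start that is followed by at least 4 pyrimidines (C or T), and for those pyrimidines. Pyrimidines that lie or begin farther from the start are in lower case.
Rpl35: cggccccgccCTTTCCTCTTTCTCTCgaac
Rps27: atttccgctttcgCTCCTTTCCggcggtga
Rpl28: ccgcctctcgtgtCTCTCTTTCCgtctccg
Rplp2: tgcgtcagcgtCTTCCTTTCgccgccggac
Rps6: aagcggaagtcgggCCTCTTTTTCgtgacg
Rps24: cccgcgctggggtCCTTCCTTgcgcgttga
Rps2: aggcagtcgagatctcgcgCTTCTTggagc
Rpl26: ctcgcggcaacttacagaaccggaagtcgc
These lie at chr2:39005117-39005146 for Rpl35, chr3:90213634-90213663 for Rps27 and chr7:4792950-4792979 for Rpl28, chr7:141447636-141447665 for Rplp2, and chr4:86857353-86857382 for Rps6. Rps24, of which the first of 2 annotated starts is shown, lies at chr14:24490663-24490692, Rps2 at chr17:24720048-24720077 and Rpl26 at chr11:68901551-68901580. Rpl35, Rps27 and Rps6 are on the minus strand and the other 5 on the plus strand. The first 4 were among the members highest in IPMK cKO replicate 1, Rps24 and Rps2 among the lowest there, and Rpl26 shows a window without the run. The other annotated start of Rps24 holds no such run. The Rpl26 window ends before the GENCODE start of that gene at 68901583, so the 2 annotations place the start differently. Rps6 is phosphorylated downstream of mTOR.

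Such a run began within 5 bases of the start in 30 of 72 member starts (41.7%), which belonged to 60 members, and in 18.3% of the 32851 starts in the table. Within 30 bases, a window chosen after seeing the data, it began in 63 of the 72 starts (87.5%) and in 61.4% of all starts. Only the strand of the gene was searched, and a match describes letters in the window, not a site in use. The 81 genes lie on 19 chromosomes in GENCODE M21 (mm10), with 14 on chromosome 7 and 4 on chromosome X.

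Of the 81 genes, 77 had enough counts to be tested, 46 of the large and 31 of the small subunit. The 4 that did not pass the filter on low counts are 3 paralogues and Rps4l, the annotated pseudogene. Rpl3l, the form of striated muscle, and Rpl10l, the form of the testis, had 0 counts in all 6 libraries. Rpl39l had 14 counts in wild type replicate 2 and 0 in the other 5 libraries. Rps4l had 1, 24 and 0 counts in wild type against 0, 0 and 65 in IPMK cKO. With these exceptions the set was detected at every library's depth: the lowest count of a tested member was 156, of Rps27l in IPMK cKO replicate 1, and no other tested member fell below 482 counts in a library.

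The proteins are needed in about equal amounts, but their tags were not equally abundant. Levels are CPM, and since each transcript gives tags at its 3′ end only, they were not divided by length. In wild type the median over the 46 large subunit genes was 365 CPM, from 127 CPM for Rpl7a to 3993 CPM for Rplp1, a 31.3-fold span. The median over the 31 small subunit genes was 518 CPM, from 47.2 CPM for Rps27l to 2425 CPM for Rps14, a 51.4-fold span, and the next lowest was Rps12 at 217 CPM. The highest level in wild type was that of Rplp1 at 3993 ± 607 CPM (SD, n = 3), a protein of the stalk that recruits elongation factors. Rps14, of the platform of the small subunit, followed at 2425 ± 541 CPM (SD, n = 3). The next in order were Rps9 at 1997 ± 124 CPM, Rps20 at 1911 ± 85.5 CPM and Rpl22 at 1911 ± 275 CPM (SD, n = 3 each). These last 3 neighbours lay within each other's spread, whereas every wild type library had Rplp1 above all other members.

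**Figure D1:**
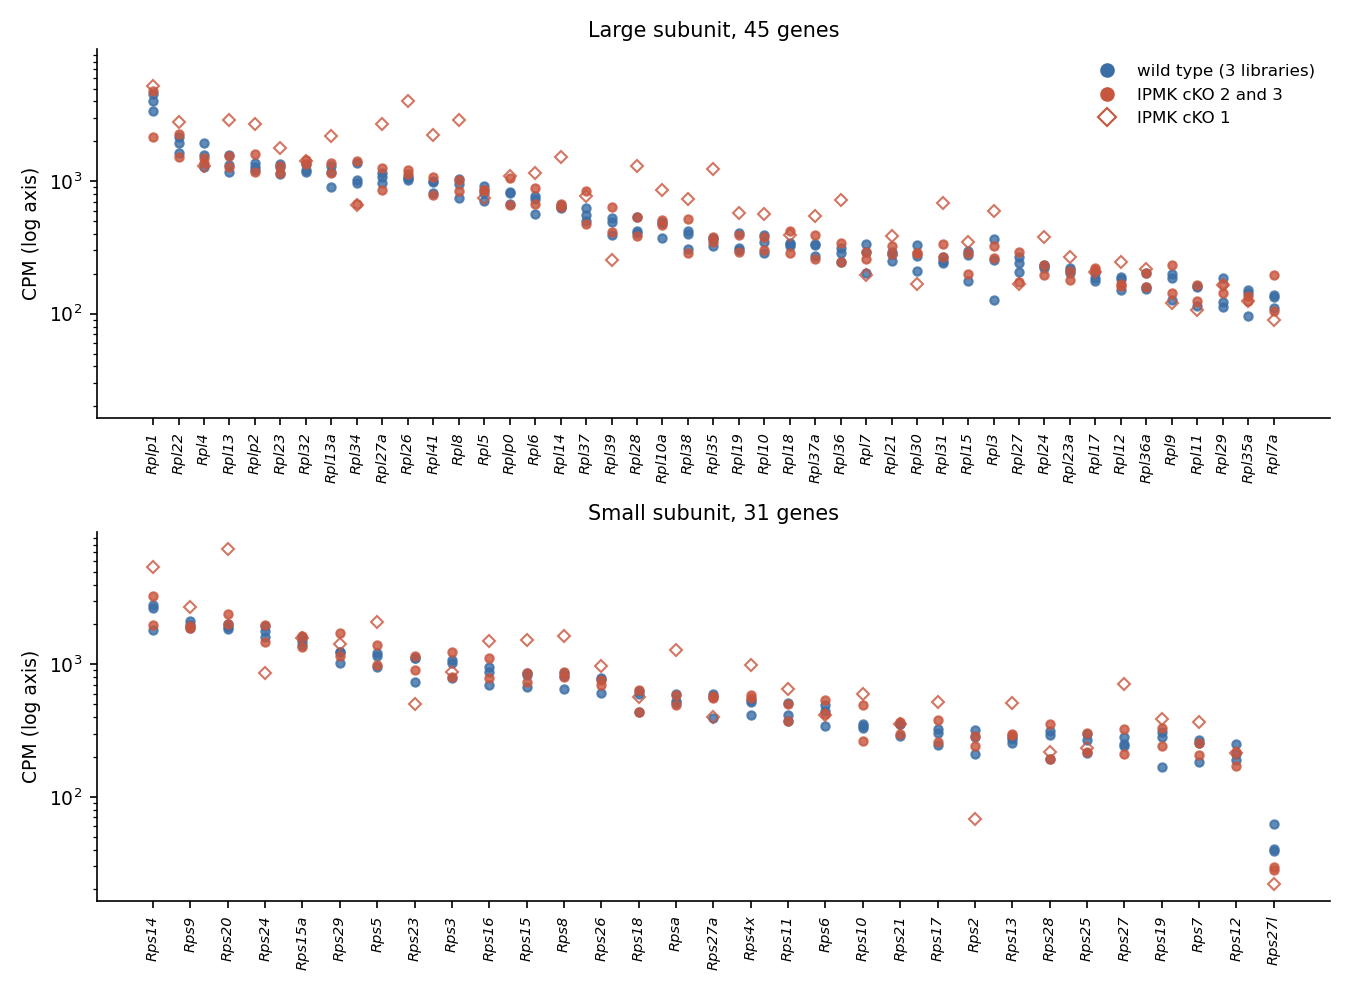
Level of each tested member in each library, in CPM on a log axis, for 45 of the 46 large subunit genes (top) and 31 small subunit genes (bottom) in order of the wild type mean. Filled circles are 3 wild type libraries (blue) and IPMK cKO replicates 2 and 3 (red), and open diamonds are IPMK cKO replicate 1, which lies off the other 5 points for many genes, as for Rps20 at 7402 CPM.

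The order of the members was nearly the same from library to library except in IPMK cKO replicate 1. Across the 77 genes Spearman's rho was 0.960 to 0.986 for the 10 pairs of libraries without IPMK cKO replicate 1 and 0.869 to 0.894 for the 5 pairs with it (a description across genes, which are not independent). The median coefficient of variation in wild type was 13.9% over the large and 14.3% over the small subunit genes. In IPMK cKO it was 34.7% and 30.9%, and over IPMK cKO replicates 2 and 3 alone it was 15.6% and 17.0%. The steadiest members in wild type were Rpl24 (2.69%), Rpl26 (2.78%) and Rpl14 (2.97%), and the most variable was Rpl3 (47.9%), which reaches toward the peptidyl transferase centre, at 364, 127 and 253 CPM.

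IPMK cKO replicate 1 stood apart, and results are therefore given with and without it. For each member the deviation is the log2 (CPM + 1) in a library minus the median of the other 5 libraries. Its median over the 77 members was 0.09, -0.33 and 0.01 in wild type against 0.47, -0.26 and 0.23 in IPMK cKO. Over the other 1543 genes of at least 100 CPM the median was -0.05, -0.01 and -0.04 in wild type against 0.20, 0.05 and -0.03 in IPMK cKO. In the other 5 libraries the SD over members was 0.21 to 0.23, and at most 1 member lay beyond 2-fold. In IPMK cKO replicate 1 the SD was 0.78, with 18 members more than 2-fold higher, 13 of the large and 5 of the small subunit. Another 3, all of the small subunit, were more than 2-fold lower. Members beyond 2-fold made up 27.3% there, and 26.6% of the other 1543 genes of at least 100 CPM lay beyond 2-fold in the same library. By direction, 23.4% of members were higher and 3.90% lower, and 15.6% of the other genes were higher and 10.95% lower.

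**Figure D2:**
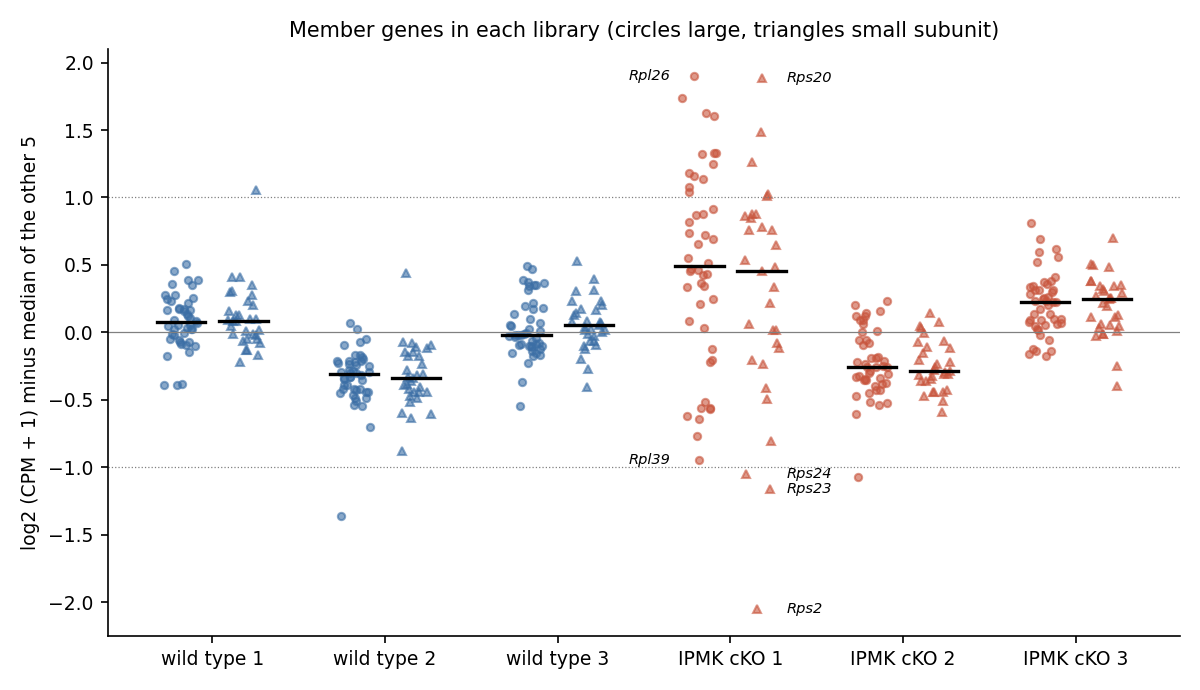
Deviation of each of the 77 members in each library, as log2 (CPM + 1) minus the median of the other 5 libraries, with circles for the large and triangles for the small subunit, black bars for medians and dotted lines at 2-fold. IPMK cKO 1 is spread from -2.05 (Rps2) to 1.90 (Rpl26), while the SD over members is 0.21 to 0.23 in the other libraries.

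The members farthest off in IPMK cKO replicate 1 were Rpl26, which sits beside the exit of the peptide tunnel, at a deviation of 1.90, and Rps20, of the head of the small subunit, at 1.89. Rps2, at the mRNA entry channel, lay at -2.05, with 321, 209 and 284 CPM in wild type against 67.8, 242 and 287 CPM in IPMK cKO. IPMK cKO replicate 1 alone was low for Rps2, and the other 5 libraries overlapped between the groups. Rps23, of the decoding centre, was at 1113, 736 and 1114 CPM in wild type against 498, 900 and 1146 CPM in IPMK cKO. Rps24, a gene mutated in Diamond-Blackfan anaemia, was at 1947, 1611 and 1778 CPM in wild type against 860, 1465 and 1973 CPM in IPMK cKO. In all 3 the lowest value was that of IPMK cKO replicate 1. Across the 77 members, Spearman's rho of this deviation was 0.44 with the GC content of the shortest principal transcript and 0.01 with its length. With the best supported principal transcript, a choice added after seeing the data, rho with GC content was 0.32, and over 1470 other abundant genes it was 0.18 and 0.19 for the 2 choices. Median GC content was 54.8% for the 18 members more than 2-fold higher and 48.9% for the 12 with a deviation below -0.5. These points share 1 library and its depth, and the part of GC content in the deviations was not tested.

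The share of the tags held by the members overlapped between the groups. Large subunit genes held 4.77%, 3.73% and 4.51% of the counts outside Rn45s in wild type against 6.08%, 3.68% and 4.98% in IPMK cKO. The means were 4.34% ± 0.538 and 4.91% ± 1.20 (SD, n = 3 each), a difference of 0.578 percentage points (exact permutation test, two-sided p = 0.5, 0.667 adjusted over 4 share measures). Small subunit genes held 3.49%, 2.76% and 3.40% in wild type against 4.25%, 2.84% and 3.77% in IPMK cKO. The means were 3.22% ± 0.398 and 3.62% ± 0.716 (SD, n = 3 each), a difference of 0.407 percentage points (exact permutation p = 0.4, 0.667 adjusted). The groups overlapped for both subunits, with wild type replicate 2 and IPMK cKO replicate 2 at the bottom and IPMK cKO replicate 1 at the top. The smallest p that 3 against 3 libraries allow is 0.1. Without IPMK cKO replicate 1 the difference was -0.0036 percentage points for the large (exact permutation p = 1.0) and 0.0924 for the small subunit (exact permutation p = 0.8). In bulk samples a lower level of an mRNA per cell and fewer cells that hold it cannot be told apart.

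With all libraries, the ratio of the subunits had the same mean in both groups. Large over small subunit counts were 1.37, 1.35 and 1.33 in wild type against 1.43, 1.29 and 1.32 in IPMK cKO, with means of 1.35 ± 0.0195 and 1.35 ± 0.0713 (SD, n = 3 each, exact permutation p = 1.0). The ratio was most variable within IPMK cKO, and replicate 1 held its highest value. IPMK cKO replicates 2 and 3 lay below all 3 wild type libraries. Without replicate 1 the IPMK cKO mean was 1.31 ± 0.0181 (SD, n = 2), a difference of -0.0406 (exact permutation p = 0.2).

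**Figure D3:**
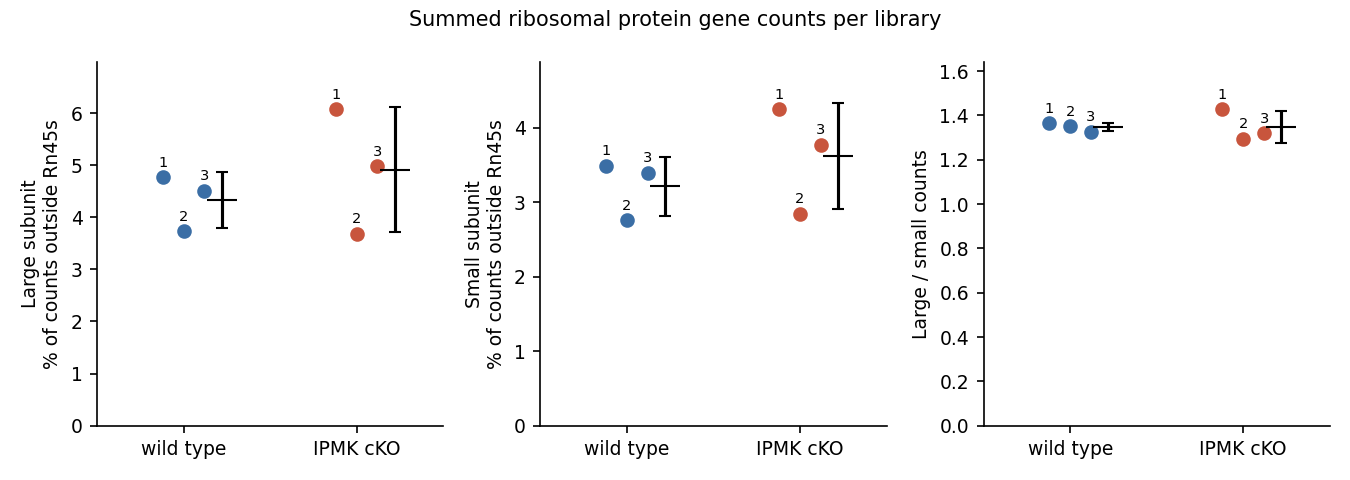
Percent of counts outside Rn45s in large (left) and small subunit genes (middle), and the ratio of their counts (right), with 1 point per library numbered by replicate and the mean with SD beside each group. The groups overlap in all 3 panels, and IPMK cKO 1 is the highest point at 6.08%, 4.25% and 1.43.

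No ribosomal protein gene passed the test between IPMK cKO and wild type. With edgeR's quasi-likelihood test and Benjamini-Hochberg adjustment over 10475 genes, 0 of the 77 members had an adjusted p under 0.05, and 0% of all genes did. DESeq2 called 0 members and 0.0286% of all genes, and limma-voom called 0 of either. At an unadjusted p under 0.05 edgeR had 2 members higher in IPMK cKO, Rps20 and Rpl26, against 1.37% of all genes, and 0 members lower, against 1.19%. DESeq2 had 5 members higher at that level, against 2.09% of all genes, and voom had 1, against 1.57%. The estimates lay above 0 for 59 of the 77 members (37 of 46 large, 22 of 31 small) and for 51.8% of all genes. The median log2 fold change was 0.25 for the large subunit, 0.23 for the small subunit and 0.03 for all genes, and the median SE of a member was 0.31. Without IPMK cKO replicate 1 the medians were 0.05 for each subunit and -0.01 for all genes. With total counts and no scaling factor the median of all genes moved to -0.17, the members lay at 0.02 (large) and -0.01 (small), and 39 members were above 0 and 38 below.

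In 6 members (7.79%) all 3 IPMK cKO libraries lay above all 3 wild type libraries, against 4.74% of all genes, and in 1 member (1.30%) they lay below, against 5.66%. The 6 were Rpl17, Rpl26, Rpl31, Rpl32, Rps13 and Rps4x, and the 1 was Rps27l. Without IPMK cKO replicate 1, 5 members were higher without overlap against 9.45% of all genes. Without IPMK cKO replicate 2 there were 32 against 10.5%, so that library decides the overlap of many members. With total counts and no scaling factor 0 members were higher without overlap, against 2.69% of all genes.

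**Figure D4:**
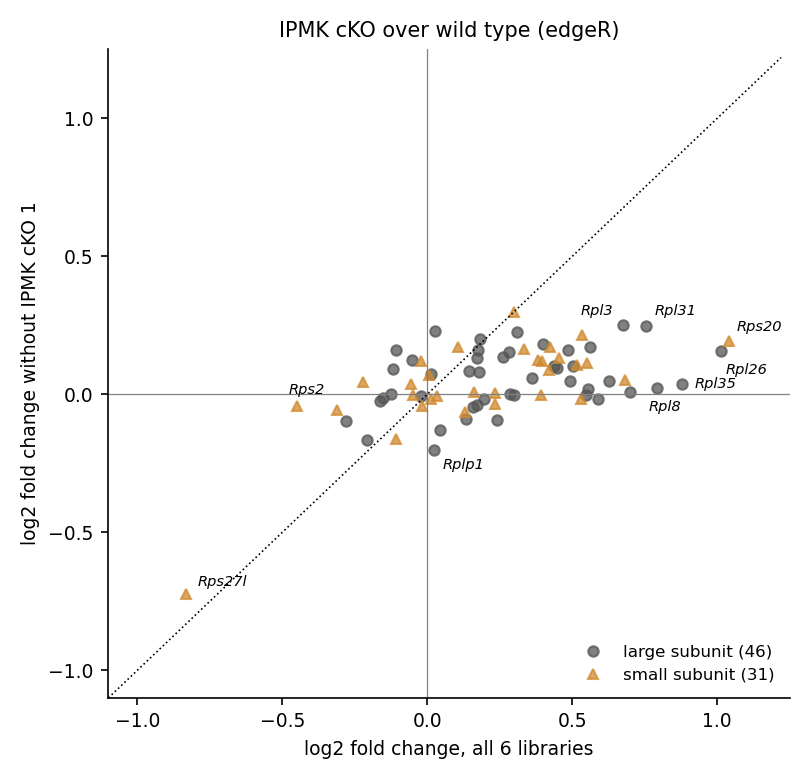
Log2 fold change of IPMK cKO over wild type from edgeR for each of the 77 members, with all 6 libraries (x axis) and without IPMK cKO 1 (y axis), circles for the large and triangles for the small subunit, and equality as the dotted line. Most members right of 0 fall near 0 on the y axis, such as Rpl35 from 0.88 to 0.04, whereas Rps27l stays at -0.83 and -0.72.

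Among the proteins around the exit of the peptide tunnel, where nascent chains leave and chaperones dock, 7 of 8 estimates were above 0. Their median log2 fold change was 0.25, and 0.10 without IPMK cKO replicate 1. Of all 46 tested large subunit members 37 were above 0, and the 2 medians were 0.25 and 0.05. Rpl26 (chr11:68901583-68906989, plus strand) was at 1071, 1016 and 1061 CPM in wild type against 4004, 1142 and 1210 CPM in IPMK cKO. All 3 IPMK cKO values were above wild type, but replicates 2 and 3 only slightly. The log2 fold change was 1.01 (SE 0.44, edgeR unadjusted p = 0.0437), and 0.16 without replicate 1. Rpl31 (chr1:39367842-39371911, plus strand), at the rim of the exit, was at 251, 241 and 269 CPM in wild type against 680, 270 and 335 CPM in IPMK cKO, with a log2 fold change of 0.75 (SE 0.35, edgeR unadjusted p = 0.0562). Its groups did not overlap, and it stayed at 0.25 without replicate 1. Rpl35 (chr2:39001580-39005624, minus strand), a contact of the signal recognition particle, was at 373, 323 and 368 CPM in wild type against 1228, 349 and 381 CPM in IPMK cKO. Its groups overlapped, and the log2 fold change of 0.88 (SE 0.44) was 0.04 without replicate 1. Rpl39, at the tunnel wall, went the other way in replicate 1, with 490, 390 and 530 CPM in wild type against 254, 416 and 639 CPM in IPMK cKO. Rpl17 had the tightest groups, at 186, 177 and 201 CPM in wild type against 206, 219 and 214 CPM in IPMK cKO, a log2 fold change of 0.18 (SE 0.26). Rpl22, which is dispensable for most translation and known for a role in T cell development, was at 2168, 1620 and 1946 CPM in wild type against 2781, 1517 and 2273 CPM in IPMK cKO. The groups overlapped, and its log2 fold change was 0.20 (SE 0.29), and -0.02 without replicate 1.

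Of the stalk proteins, which bind elongation factors, none passed the test. Rplp0, the base of the stalk, was at 826, 674 and 813 CPM in wild type against 1089, 665 and 1054 CPM in IPMK cKO, a log2 fold change of 0.28 (SE 0.28). Rplp1 (chr9:61913284-61914542, minus strand) was at 4573, 3362 and 4045 CPM in wild type against 5209, 2171 and 4799 CPM in IPMK cKO, with a log2 fold change of 0.02 (SE 0.34), and of -0.20 without replicate 1. Rplp2, the partner of Rplp1, was at 1374, 1208 and 1278 CPM in wild type against 2700, 1181 and 1590 CPM in IPMK cKO (in parentheses, here and for the genes that follow, the log2 fold change: 0.50, SE 0.32). In all 3 genes IPMK cKO replicate 2 was the lowest library and replicate 1 the highest. Rpl5 and Rpl11, which bind the smallest ribosomal RNA of the large subunit and, when free, the p53 regulator Mdm2, had estimates near 0. Rpl5 was at 919, 704 and 821 CPM in wild type against 743, 858 and 864 CPM in IPMK cKO (0.01, SE 0.25). Rpl11 was at 159, 113 and 161 CPM in wild type against 108, 125 and 166 CPM in IPMK cKO (-0.12, SE 0.31). Unlike most members, both were below the median of the other libraries in IPMK cKO replicate 1.

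Another large subunit member with a small p-value shared the dependence on 1 library. Rpl8, near the peptidyl transferase centre, was at 1035, 752 and 944 CPM in wild type against 2873, 845 and 1012 CPM in IPMK cKO (0.79, SE 0.43, and 0.02 without replicate 1). Its groups overlapped, and replicate 1 stood well above the other 5 libraries.

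In the small subunit, 4 entry and decoding proteins had a median deviation of -0.70 in IPMK cKO replicate 1, and 4 exit side proteins 0.67. Only 2 genes of the first list were more than 2-fold lower there, and 2 of the second more than 2-fold higher. The lists were chosen with earlier results known, and the contrast comes from 1 library. Without that library the median log2 fold changes of the lists were both 0.02. Rps20 (chr4:3831334-3835665, minus strand) was at 1832, 1899 and 2002 CPM in wild type against 7402, 1998 and 2387 CPM in IPMK cKO. Its groups overlapped, with IPMK cKO replicate 2 below wild type replicate 3. The means were 1911 ± 85.5 and 3929 ± 3014 CPM (SD, n = 3 each), and the log2 fold change was 1.04 (SE 0.44, edgeR unadjusted p = 0.0395), and 0.19 without replicate 1. Rps14 was at 2672, 1805 and 2798 CPM in wild type against 5387, 1963 and 3299 CPM in IPMK cKO (0.55, SE 0.37, and 0.11 without replicate 1). Rps9, which helps keep decoding accurate, was at 2129, 1883 and 1981 CPM in wild type against 2718, 1893 and 1946 CPM in IPMK cKO (0.13, SE 0.26). Both overlapped between the groups. Rpsa, at the mRNA exit and also known as a laminin receptor, was at 592, 531 and 511 CPM in wild type against 1275, 587 and 494 CPM in IPMK cKO (0.53, SE 0.36, and -0.02 without replicate 1). Rps6 was at 489, 343 and 447 CPM in wild type against 412, 425 and 539 CPM in IPMK cKO (0.11, SE 0.27). Rps19, the gene most often mutated in Diamond-Blackfan anaemia, was at 284, 169 and 311 CPM in wild type against 389, 242 and 331 CPM in IPMK cKO (0.33, SE 0.32). The groups overlapped in all of these, and over the 18 members mutated in that anaemia 13 estimates were above 0, with a median of 0.20, and of 0.04 without replicate 1. Over all 77 tested members 59 estimates were above 0, and the 2 medians were 0.23 and 0.05. Of the X-linked members Rps4x was at 536, 414 and 518 CPM in wild type against 986, 554 and 586 CPM in IPMK cKO (0.53, SE 0.30), without overlap, and it stayed at 0.21 without replicate 1.

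Rps27l had the lowest estimate of the 77 members and was the 1 member lower without overlap. It encodes a paralogue of Rps27 that p53 is known to induce (chr9:66946086-66949516, plus strand). Its levels were 62.1, 40.3 and 39.1 CPM in wild type against 21.9, 28.0 and 29.4 CPM in IPMK cKO, from 516, 295 and 376 counts and 156, 214 and 290 counts. Every IPMK cKO library was below every wild type library, and the means were 47.2 ± 12.9 and 26.4 ± 3.96 CPM (SD, n = 3 each). The log2 fold change was -0.83 (SE 0.45, edgeR unadjusted p = 0.0933, adjusted p = 0.9999), so the difference did not pass the test. It lay below 0 and without overlap in all 16 settings of the fit, from -1.02 to -0.47. These settings reuse the same libraries and several use the same CPM, so their outcomes are largely tied to the main fit. Rps27 itself was at 251, 241 and 283 CPM in wild type against 706, 209 and 327 CPM in IPMK cKO (0.68, SE 0.40, and 0.05 without replicate 1), and its groups overlapped.

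**Figure D5:**
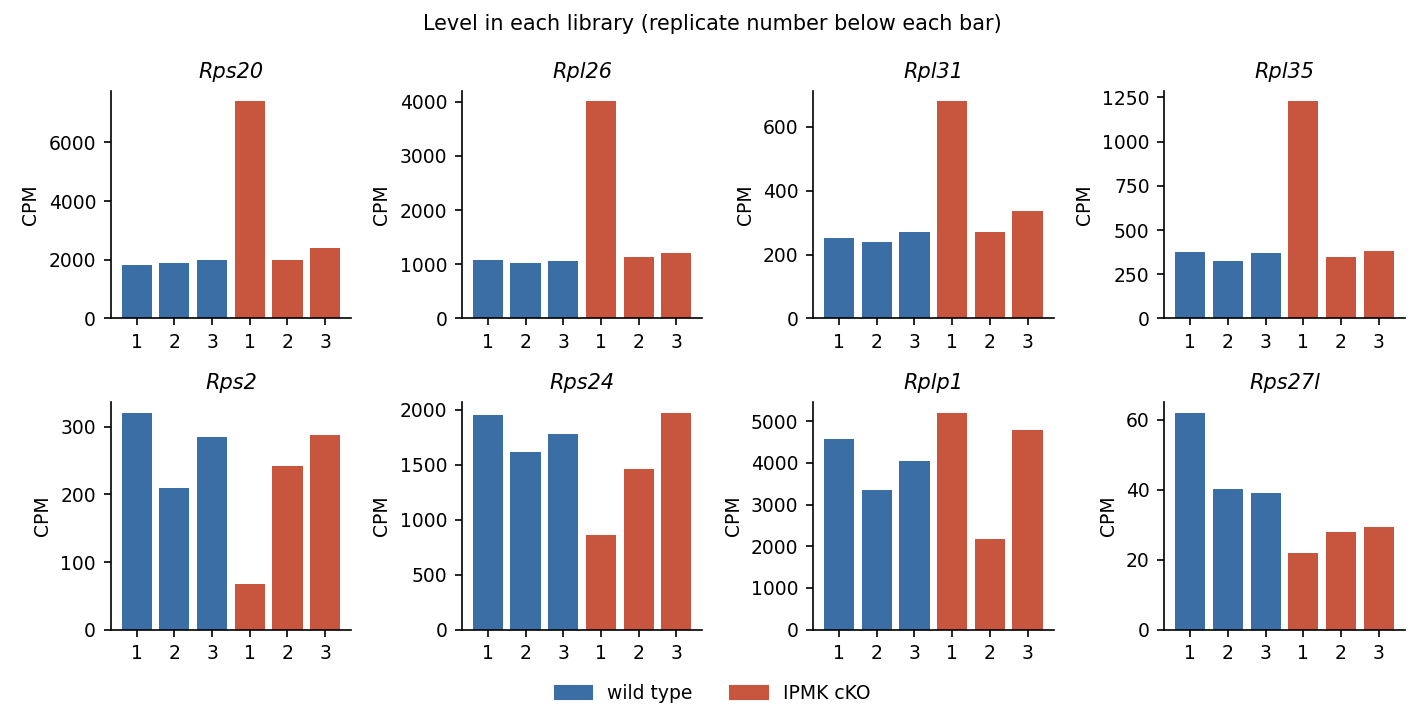
Level in CPM in each library for 8 members, wild type in blue and IPMK cKO in red with the replicate number under each bar. IPMK cKO 1 is far above the rest for Rps20, Rpl26, Rpl31 and Rpl35 and below it for Rps2 and Rps24, Rplp1 shows no order by group, and for Rps27l all 3 IPMK cKO bars (21.9 to 29.4 CPM) are below the wild type bars (39.1 to 62.1 CPM).

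Ribosomal protein genes have many near-identical processed copies, so counts can be split between a gene and its copies. In the last 200 bases of the transcript, 56 of the 77 members shared an exact 50-base stretch with another annotated gene, 40 of them over more than 50% of the positions, and 21 shared none. Rps20, Rps23, Rps24 and Rps27l were among those without a shared stretch. Rpl26 shared 67.5%, Rpl31 79.5%, Rpl35 99.3%, Rps2 78.1% and Rps27 100% of the positions, so their counts are uncertain. Only the end of the chosen transcript of each gene was searched. That transcript had 3706 bases for Rps20, 1613 for Rps24 and 937 for Rps23, against a median of 681 over the tested members. Sharing at another 3′ end of these genes was not tested, so their counts may be uncertain too. Several entries outside the symbol rule held more counts than the member they are named after. The entry Rplp2-ps1 was at 3112, 2664 and 3034 CPM in wild type against 5004, 3002 and 3192 CPM in IPMK cKO, 1.85 to 2.54 times the counts of Rplp2. Rps27rt, which shares a stretch with Rps27, had 1.18 to 2.29 times the counts of Rps27, lowest in IPMK cKO replicate 1, and Rpl37rt, for which no shared stretch was found in the transcript of Rpl37 used, had 1.98 to 2.81 times those of Rpl37. Whether reads were split between these entries was not tested. Rpl22l1, the paralogue of Rpl22, was at 220, 167 and 225 CPM in wild type against 39.1, 158 and 279 CPM in IPMK cKO, low in replicate 1 alone. Rps3a1, of the small subunit, is also outside the symbol rule and so not in the small subunit shares, medians and ratios. It was at 1041, 688 and 951 CPM in wild type against 902, 694 and 973 CPM in IPMK cKO.

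Translation genes outside the symbol rule also depended on IPMK cKO replicate 1, in both directions. In that library 5 of them were more than 2-fold higher and 3 more than 2-fold lower. Of the other genes of at least 100 CPM, 15.6% were higher and 10.95% lower. Of 19 tested translation genes outside the symbol rule, 12 had estimates above 0 and 0 were called, with a median log2 fold change of 0.26, and of 0.03 without IPMK cKO replicate 1. Fau, whose product is cut into a small subunit protein, was at 709, 676 and 787 CPM in wild type against 1471, 695 and 816 CPM in IPMK cKO (0.46, SE 0.32). Gnb2l1, the small subunit scaffold also called Rack1, was at 1070, 896 and 1037 CPM in wild type against 1423, 887 and 1046 CPM in IPMK cKO (0.16). Fau and Gnb2l1 overlapped between the groups. Eif3h and Eef1g, of the initiation and elongation machinery, had the smallest p-values of the list. Eif3h was at 293, 353 and 317 CPM in wild type against 854, 270 and 389 CPM in IPMK cKO (0.65). Eef1g was at 220, 203 and 210 CPM in wild type against 426, 269 and 203 CPM in IPMK cKO (0.50). Both overlapped between the groups.

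Of 64 tested ribosome assembly factors, 38 had estimates above 0 and 0 were called, with a median of 0.27, and of 0.15 without IPMK cKO replicate 1. In 9 of them IPMK cKO was higher without overlap, against 4.74% of all genes, and in 1 lower, against 5.66%. Without IPMK cKO replicate 1 these were 14, against 9.45%, and 4, against 1116 of 11138 genes. Bop1, needed to process the RNA of the large subunit, was at 12.5, 13.0 and 12.5 CPM in wild type against 72.9, 23.0 and 41.6 CPM in IPMK cKO. Each IPMK cKO library was above the wild type libraries, which lay close together, and the log2 fold change was 1.85 (SE 0.58, edgeR unadjusted p = 0.00847), and 1.35 without replicate 1. Gnl2, a GTPase of large subunit export, was at 57.6, 66.3 and 55.6 CPM in wild type against 122, 80.1 and 157 CPM in IPMK cKO. Its groups did not overlap either, and the log2 fold change was 1.003 (SE 0.35, edgeR unadjusted p = 0.0153), and 0.98 without replicate 1. Neither passed the adjustment over all genes, with an adjusted p of 0.9999 each.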

How the data were processed

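Per the labels' protocols, Trizol RNA was made into Lexogen QuantSeq libraries, whose reads start near the poly(A) tail. The authors deposited whole-number counts per gene symbol, not normalized, in 1 file per library. The submitters' processing notes name Bowtie2, edgeR, mm10 and hg19. How reads were counted, on which annotation and strand, is not given in the sources used, so overlapping and antisense genes are uncertain. The members and lists were chosen with earlier results of these data known.

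All genes were fitted with edgeR 4.0.16 in R 4.3.3 (TMM, filterByExpr with a minimum of 10 counts, quasi-likelihood test, Benjamini-Hochberg adjustment, threshold 0.05), without the replicate number in the model. CPM use the TMM-scaled library sizes. The SE is the estimate over the square root of F. For shares, exact permutation tests (two-sided) were used. DESeq2 1.42.0 and limma-voom (limma 3.58.1), other scalings, no filter, the replicate number as a block and leaving out libraries were alternatives. The fit was also run on simulated data. Recovery of changed genes was required there only for the largest simulated fold change, at a dispersion well below that of these data. It therefore does not show that smaller changes would be found in these libraries. Members with values in every library were, in each subunit, the 4 with the smallest p and the 3 with the highest mean CPM, the stalk, Rpl5, Rpl11, the paralogues, Rps6, Rpl22, Rps19 and Rpsa, and of the other lists the 2 with the smallest p, Fau and Gnb2l1. Some genes that this rule takes are not reported here. Rps2, Rps23, Rps24, Rpl3, Rpl14, Rpl17, Rpl24, Rpl28, Rpl32, Rpl39, Rps13, Rpl7a, Rps12, Rplp2-ps1, Rps27rt, Rpl37rt, Rpl22l1, Rps3a1, Foxp3 and Ikzf2 were named after their values were seen. Transcripts came from GENCODE M21 and start windows from RefSeq (GRCm38.p6), which matched 60 of the 81 members.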

Additional observations from a re-analysis of the deposited data

How the results depend on the processing

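No member was called in any of the settings run. The subunit medians moved by less than the spread between library medians (SD 0.245 for the large and 0.255 for the small subunit). That spread includes IPMK cKO replicate 1 and is about as large as the medians (0.25 and 0.23), so it cannot show that they held. They fell to 0.05 each without that replicate, and to 0.02 and -0.01 with total counts only. Depth left 4 members untested, with 0 to 65 counts per library, and gave the tested members at least 156. Genes called numbered 3 with DESeq2, 1 without both libraries numbered 1, and 0 to 1 when 1 library was left out. Leaving out 1 library gave differences of -0.0036 to 1.19 percentage points in the large subunit share, 0.0924 to 0.797 in the small subunit share and -0.0406 to 0.0265 in the ratio of large to small. With Rn45s in the denominator the differences were 0.201 (large) and 0.136 (small). Without the 3 most abundant members of each subunit they were 0.540 and 0.0834, and the ratio differed by 0.172 (exact permutation p = 0.6). Of 375 log2 fold changes of the 25 named genes under alternatives, 27 changed sign, in 9 genes, and 0 had an adjusted p under 0.05; the cause was not tested. With total counts only these were Gnb2l1 -0.0692, Rpl22 -0.0255, Rpl5 -0.185, Rplp1 -0.185, Rps6 -0.0834 and Rps9 -0.0977. Without both libraries numbered 1 they were Eif3h -0.0242, Gnb2l1 -0.00065, Rpl11 0.0819, Rplp1 -0.0877 and Rps9 -0.0096. Rpl5 was -0.0035 with scaling factors from the other genes, and Rplp1 was -0.0644 with voom. Leaving out 1 library gave -0.0566 to 0.271 for Gnb2l1, -0.316 to 0.000413 for Rpl11, -0.0181 to 0.372 for Rpl22, -0.0969 to 0.106 for Rpl5, -0.202 to 0.296 for Rplp1, -0.0435 to 0.215 for Rps6, -0.0633 to 0.206 for Rps9 and -0.0161 to 0.772 for Rpsa.

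The replicate numbers are shared by both groups, but same-numbered libraries correlated at only 0.0454, 0.0877 and 0.0265 in their deviations from the group means, although each correlated best with its own number. With the replicate number as a block 0 members were called, the medians were 0.23 (large) and 0.21 (small), the share differences were 0.578 (exact p = 0.5) and 0.407 percentage points (exact p = 0.25, the smallest that 3 pairs allow), the ratio differed by -0.00011 (exact p = 1.0), and Rplp1 was -0.0637.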
